A study of Arabidopsis thaliana with 18 samples.

Results

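Small RNAs of 22 nucleotides (22-nt) were compared between seedlings of Arabidopsis thaliana that lacked 2 Dicer-like enzymes and seedlings of the wild type, both grown on the stress hormone abscisic acid (ABA). The comparison takes 6 of the 18 libraries of the series: 3 of the wild type Col-0 and 3 of the double mutant dcl4-2 dcl2-1, all from whole seedlings that were 14 days old per the labels and had grown on medium with 1 µM ABA. The other libraries were Col-0 and dcl4-2 dcl2-1 on plain MS medium and the single mutant dcl4-2 on both media, with 3 libraries each. The deposited table gives 32420 annotated loci, of which 12846 had at least 1 read in the 6 libraries and 5697 reached at least 1 RPM (reads scaled per M reads of a library, M meaning mega) in at least 3 of the 18 libraries and were tested. Both genotypes were on ABA, so a difference between them is one of genotype under the hormone and not an effect of the hormone.

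Dicer-like enzymes cut double-stranded RNA into small RNAs. DCL4 makes mostly small interfering RNAs (siRNAs) of 21 nucleotides, DCL2 makes those of 22 nucleotides and takes over substrates that DCL4 leaves uncut, DCL1 makes most microRNAs (miRNAs), and DCL3 makes the 24-nucleotide siRNAs of transposons and repeats. The double-stranded RNA comes from inverted repeats that fold back on themselves, or from messenger RNAs that an RNA-dependent RNA polymerase copies after a miRNA has cut them. A well-known group of such messengers in Arabidopsis encodes pentatricopeptide repeat (PPR) proteins, RNA-binding proteins that act mainly in mitochondria and chloroplasts and whose messengers are targets of miR161 and miR400.

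Sequences from loci with large differences, and of miRNAs known to target PPR messengers, are shown first. Whether these sequences bear on the differences was not tested. The mature miRNAs that are known to target the PPR messengers are given with the seed, bases 2 to 8, in capitals, and all 3 are 21 bases long in RefSeq's annotation of the TAIR10.1 assembly.
miR161.1: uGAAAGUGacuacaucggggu
miR161.2: uCAAUGCAuugaaagugacua
miR400: uAUGAGAGuauuauaagucac

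The best ungapped match to miR161.2 in 5 PPR messengers that lost their 22-nt RNA is given next in the sense of the messenger, with bases that pair with miR161.2 in capitals and mismatches, G:U pairs included, in lower case. All 5 sites lie in coding sequence on chromosome 1 of TAIR10.1, at chr1:23508308-23508328 (plus strand), chr1:23302543-23302563 (plus strand), chr1:23389780-23389800 (minus strand), chr1:23413830-23413850 (plus strand) and chr1:23307507-23307527 (plus strand) in the order of the lines.
AT1G63400: TAGTCACTTTCAAcGCATTGA
AT1G62914: TAGTCACTTTCAgcGCATTGA
AT1G63080: TAGTCACTTTCAActCATTGA
AT1G63130: TAGTCACTTTCAgcGCATTGA
RPF3: TAGTCACTTTCAgcGCATTGA

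The last sequence comes from a pair of neighbouring genes that face in opposite directions and carry the same coding stretch, so that the pair forms an inverted repeat on chromosome 3. It is the longest identical run of AT3G44570 (chr3:16159144-16159205, plus strand) and AT3G44580 (chr3:16160702-16160763, minus strand), given in the sense of both genes.
AT3G44570 and AT3G44580: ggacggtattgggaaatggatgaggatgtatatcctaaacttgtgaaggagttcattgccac

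The libraries differed in depth. The totals behind the RPM values were 2.19, 1.83 and 1.53 M reads in Col-0 on ABA and 1.28, 1.10 and 0.181 M in dcl4-2 dcl2-1 on ABA, so that 1 read was worth 5.53 RPM in the shallowest mutant library and at most 0.907 RPM in the other 5. In each group the deepest library bears the letter A and the shallowest the letter C, and equal letters do not pair libraries. The annotated loci held between 1.52 and 3.14% of these totals. Reads of 22 nt at DCL2 and DCL4 numbered 2 and 0 in the 6 libraries together and say nothing of their messengers, so the genotype labels could not be checked from these data. Counting intervals were not used, and p-values rest on the spread between libraries, which the labels call biological replicates.

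On ABA, 35 loci passed as lower in dcl4-2 dcl2-1, which is 0.614% of the 5697 loci tested, and 2 loci passed as higher, which is 0.0351% (limma on log2(RPM + 1), Benjamini-Hochberg adjusted p below 0.05). The loci that fell were 11 PPR genes, 9 other protein-coding genes, 13 loci that RefSeq classes as pseudogenes, the miRNA gene MIR822 and 1 chloroplast locus. Both loci that rose encode nitrate reductase. In all 35 loci that fell, every Col-0 library lay above every mutant library, a pattern that 21.7% of all tested loci showed, and 20 of the 35 had no read in any mutant library. The median difference over all tested loci was -0.44 on the log2 scale, with 4077 of 5697 loci below 0. This median depended on the setting: it was 0 with no filter on low values and 0.09 with voom weights on the recovered reads. The count of loci that fell rests on single libraries: it was 14, 19 and 10 without Col-0 library A, B or C, and 31, 21 and 14 without mutant library A, B or C. AT3G06435 and 9 PPR genes passed in each of these 6 fits. In whole-seedling RNA, fewer cells that make a small RNA and less of it per cell cannot be told apart.

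**Figure D1:**
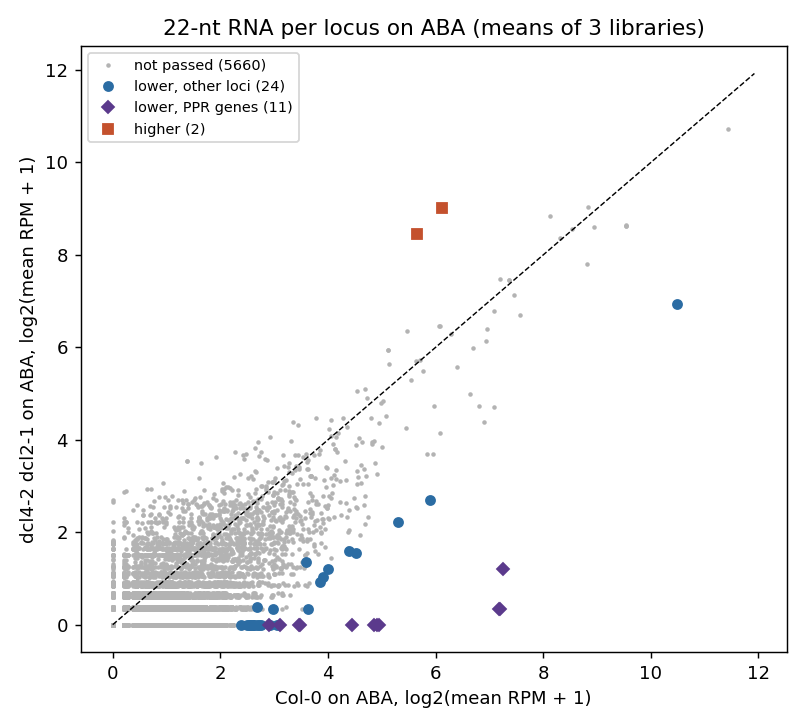
Mean 22-nt level of each tested locus in Col-0 on ABA (x axis) and dcl4-2 dcl2-1 on ABA (y axis), both as log2(mean RPM + 1), with the line of equality dashed. The 11 PPR genes and 24 other loci that passed as lower lie below the line, the 2 loci that passed as higher lie above it.

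The PPR genes lost nearly all of their 22-nt RNA. Summed over the 28 listed genes, the level was 441, 398 and 966 RPM in the Col-0 libraries and 5.47, 0 and 0 RPM in the mutant libraries. Every Col-0 library was thus far above every mutant library, and Col-0 library C was the highest. The smallest p that 3 against 3 libraries allow in a two-sided exact permutation test is 0.1, and the PPR sum reached it. Of the 28 genes, 25 had a read in the 6 libraries, 20 reached the level for testing and 11 fell, and the 20 had a median difference of -2.89 against -0.44 for all tested loci. In 18 of the 20, all Col-0 libraries lay above all mutant libraries. The list was drawn up with earlier results of these data known, and members enter the test mainly through their high level in Col-0, so the count describes the list and is not independent evidence.

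The highest members were AT1G63400, AT1G62914 and AT1G63080. AT1G63400 had 99.1, 88.0 and 250.0 RPM in Col-0 and 0.782, 0 and 0 RPM in the mutant. It fell by 6.75 ± 0.77 (SE) on the log2 scale, with a limma adjusted p of 8.85e-11. AT1G62914, its close relative, had 99.1, 89.6 and 243 RPM in Col-0 and 0.782, 0 and 0 RPM in the mutant. It fell by 6.75 ± 0.78 (SE), with a limma adjusted p of 1.72e-10. AT1G63080 had 105, 95.1 and 251 RPM in Col-0 against 3.91, 0 and 0 RPM in the mutant. It fell by 6.33 ± 0.81 (SE), with a limma adjusted p of 5.16e-09. RefSeq's note on AT1G63080 names it as a locus that makes trans-acting siRNA and as a target of an siRNA from the locus TAS2. The 3 genes thus moved alike in every library, including the higher values of Col-0 library C. They share sequence with other listed PPR genes, so the same reads may be counted at each of them.

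A second tier was less abundant in Col-0 and had no read in the mutant. AT1G62910 had 26.5, 24.6 and 38.5 RPM in Col-0, AT1G63130 had 23.7, 26.2 and 37.2 RPM, and RPF3 had 22.4, 24.6 and 36.6 RPM. With 0 reads in all 3 mutant libraries and a floor of 3 reads over the group, which is 1.17 RPM, these levels were at least 24.9-fold, 24.2-fold and 23.1-fold lower in the mutant. RPF3 encodes an RNA processing factor that shapes the 5′ ends of mitochondrial messengers. AT1G63130 is noted in RefSeq as a source of trans-acting siRNA and, like AT1G63080, as a target of siRNA from TAS2. AT1G63150 had 17.3, 16.4 and 28.7 RPM in Col-0 and 0 in the mutant, at least 17.2-fold lower. The lower members AT1G62590, AT1G63070, AT1G63330 and RPF2, a relative of RPF3 that acts on nad9 and cox3 messengers, had Col-0 means between 6.47 and 10.13 RPM and 0 reads in the mutant. Of the 9 tested members that did not pass, AT1G63630 (5.02, 2.19 and 9.79 RPM in Col-0, 0 in the mutant, adjusted p 0.0569 by limma) and AT1G12775 (1.37, 1.64 and 4.57 RPM in Col-0, 0 in the mutant, adjusted p 0.0747 by limma) were the most abundant. The genes that passed ranged from 6.47 to 151 RPM in Col-0, with sets of near-equal level. AT1G63400, AT1G62914 and AT1G63080 had 761, 753 and 790 reads in the 3 Col-0 libraries together. AT1G62910, AT1G63130 and RPF3 had 162, 157 and 150, and AT1G62590 and AT1G63070 had 54 each. Genes of a set may hold the same reads, so they are not separate cases.

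The 11 PPR genes that fell lie together on chromosome 1, between AT1G62590 at chr1:23176930-23179248 and AT1G63400 at chr1:23507178-23509484. They share much of their sequence: between 32.0 and 91.5% of the 22-base words of a gene occurred in another listed PPR gene. How reads that match several of these genes were assigned was not stated in any source at hand, so the level of a single gene is uncertain within the group. The sum is uncertain too: a read counted at each gene it matches enters the sum more than once. AT1G63400 and AT1G62914 had the same 99.1 RPM in Col-0 library A. MIR166e, MIR166f and MIR166g, which share a mature RNA of 21 bases, had 3965, 3963 and 3966 reads in Col-0 on ABA, as such counting would give. For miR161.1, miR161.2 and miR400, each of the 11 genes held an ungapped site with at most 5 mismatches, and their best sites for miR161.2 had 1 to 3 mismatches, of which 5 sites with 1 or 2 are shown above. Over all 26712 protein-coding messengers, 0.408% held such a site for miR161.1, 0.618% for miR161.2 and 0.610% for miR400. Listed PPR genes that did not pass held such sites too. Over all 27 listed messengers, those of the 11 genes included, 23 held a site for miR161.1 and 24 for miR400. A cut of 5 mismatches thus did not separate the genes that fell. For miR161.2, the best sites of tested messengers that did not pass had 3 to 8 mismatches. AT5G41170, which did not reach the level for testing, had a site with 1 mismatch. Whether the number of mismatches bears on the fall was not tested. The list was drawn from known targets, and a match is a description of the letters and not evidence of cleavage.

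In the single mutant dcl4-2 on ABA, which keeps DCL2, the PPR sum was 77.6 ± 41.9 RPM (SD, n = 3), between the Col-0 mean of 601 ± 316 and the double-mutant mean of 1.82 ± 3.16 RPM (both SD, n = 3). AT1G63400 had 4.10, 4.19 and 5.80 RPM in dcl4-2 on ABA. These values lay below all Col-0 libraries and above all double-mutant libraries, and this contrast was not tested here.

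**Figure D2:**
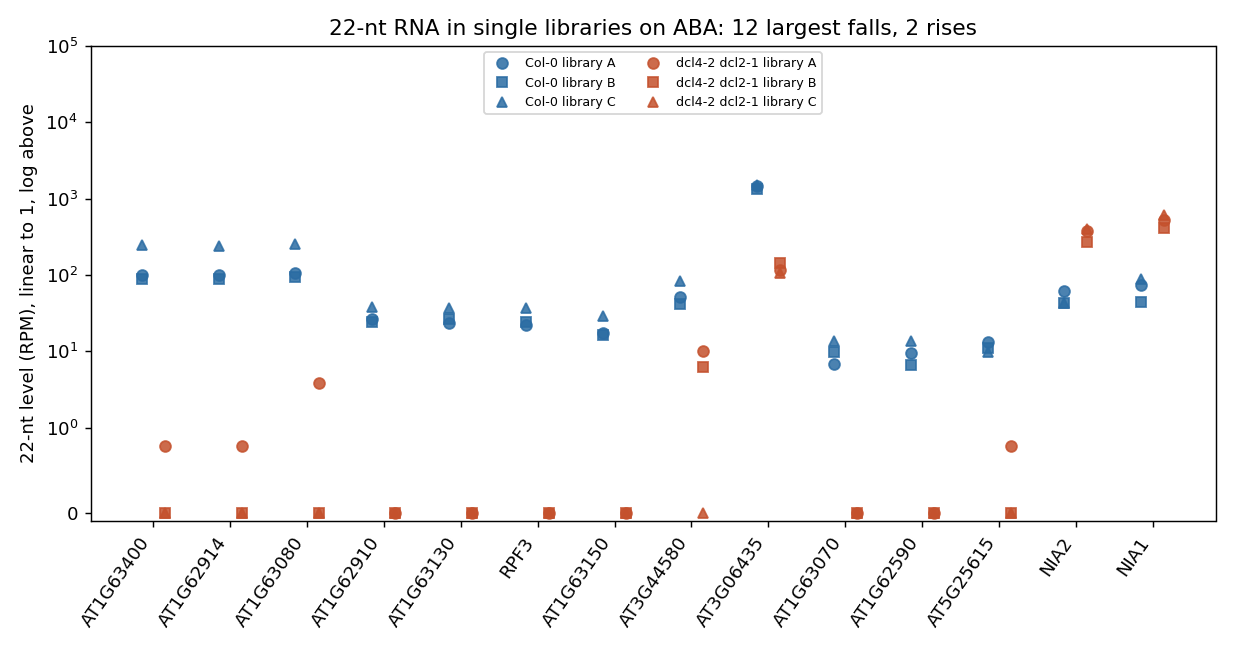
Level of 22-nt RNA (y axis, RPM, linear up to 1 and logarithmic above) in each of the 3 Col-0 and 3 dcl4-2 dcl2-1 libraries on ABA, for the 12 loci with the largest falls and the 2 that rose. Each symbol is 1 library, circles A, squares B and triangles C. The PPR genes sit at or near 0 in the mutant, AT3G06435 keeps between 105 and 146 RPM, and NIA1 and NIA2 are the loci with the mutant above.

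AT3G06435 gave the most 22-nt RNA of all loci that changed and kept part of it. It had 1477, 1334 and 1511 RPM in Col-0 and 116, 146 and 105 RPM in the mutant. The groups did not overlap, and the libraries within each group lay close together. The locus fell by 3.56 ± 0.38 (SE) on the log2 scale, with a limma adjusted p of 1.27e-11, the smallest of all loci. It made up 4.81 to 6.19% of all 22-nt reads in loci in the Col-0 libraries and 0.582 to 0.957% in the mutant libraries. The locus is annotated as a gene of an uncharacterized protein at chr3:1968288-1970946 on the minus strand of TAIR10.1. Its end with the lowest coordinates repeats in inverted orientation nearby: runs of 275, 171, 97 and 60 identical bases of the locus recur as their reverse complement at chr3:1965290-1965884, with 2403 bases between the nearest ends. The longest run, chr3:1968351-1968625, lies in the 3′ untranslated part of 1 of its 2 annotated messengers. In dcl4-2 on ABA the locus had 2033, 1705 and 3341 RPM, all above the 3 Col-0 libraries, unlike the PPR genes; this contrast was not tested here either. AT3G06436 overlaps the locus on the other strand, and no strand is given for the counts.

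Inverted repeats were frequent among the other protein-coding loci that fell. An inverted repeat was counted where at least 22 of the 22-base words of a locus recurred as their reverse complement within the locus or 3000 bases on either side. It was found in 4 of the 9 protein-coding loci outside the PPR list, AT3G06435, AT3G44580, AT2G02835 and AT2G02840, in 1 of the 11 PPR genes and in 0 of the 13 pseudogenes. AT2G02835 and AT2G02840 are neighbours that share sequence in opposite orientation, so the 4 are not separate cases. Of the 6 fits that left out 1 library, AT3G06435 passed in 6, AT2G02835 in 5, AT3G44580 in 4 and AT2G02840 in 1. Over all 5527 tested nuclear loci it was found in 90, or 1.63%. AT3G44580 had 51.1, 42.1 and 83.6 RPM in Col-0 and 10.2, 6.35 and 0 RPM in the mutant, and it fell by 3.73 ± 0.81 (SE) on the log2 scale, with a limma adjusted p of 0.00482. Its neighbour AT3G44570, annotated as a retrotransposon protein and 502 bases away, had 118, 94.5 and 192 RPM in Col-0 and 21.1, 21.8 and 33.2 RPM in the mutant. Its libraries did not overlap either, but its adjusted p by limma was 0.0817. The pair shares 202 words of 22 bases in the sense of both genes, of which the printed run of 62 bases is the longest.

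The pair AT2G02835 and AT2G02840, both annotated as zinc ion-binding proteins, faces apart on chromosome 2 with 261 bases between them and shares 55 words of 22 bases. AT2G02835 had 6.85, 3.83 and 11.1 RPM in Col-0 and 0 in the mutant. AT2G02840 had 12.8, 16.4 and 11.1 RPM in Col-0 and 0, 2.72 and 0 RPM in the mutant, with adjusted p-values of 0.00609 and 0.0100 by limma. The remaining protein-coding loci that fell were AT4G36925, AT1G43320, AT4G08691, the F-box gene AT1G66490 and MS2, which encodes a methionine synthase. MS2 had 82.6, 16.4 and 15.7 RPM in Col-0 and 5.47, 5.44 and 0 RPM in the mutant, so that its Col-0 mean rests on library A. It passed in 2 of the 6 fits that left out 1 library.

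The 13 pseudogenes that fell were low in Col-0 and had 0 or few reads in the mutant. AT1G38400 passed in 4 of the 6 fits that left out 1 library, and each of the others in at most 1. One read was worth 5.53 RPM in mutant library C, so a 0 there says little about loci as low as most of these. The highest was AT5G28715 with 21.9, 15.8 and 28.1 RPM in Col-0 and 3.13, 2.72 and 0 RPM in the mutant, followed by AT3G43356 with 10.5, 10.4 and 20.9 RPM in Col-0 and 3.13, 0 and 0 RPM. AT5G25615 had the largest fall among them, from 13.2, 10.9 and 9.79 RPM to 0.782, 0 and 0 RPM. It fell by 3.34 ± 0.77 (SE) on the log2 scale, with a limma adjusted p of 0.0100. AT1G38400 and AT1G38270 share 1898 words of 22 bases and had nearly equal levels, 5.42 ± 0.48 and 5.21 ± 0.28 RPM in Col-0 (SD, n = 3) and 0 in the mutant. Of the 22-base words of these 13 loci, a median of 68.7% was found elsewhere in the nuclear genome (range 1.83 to 89.2%), against 44.1% over the 2499 tested pseudogenes and 1.33% over the 2934 tested protein-coding genes. Of the 2499 tested pseudogenes, 708 were lower at an unadjusted p below 0.05, where 970 of all 5697 tested loci (17%) were, and their median difference was -0.86. Their summed level was 7346, 6684 and 9525 RPM in Col-0 and 3140, 2659 and 4102 RPM in the mutant, a ratio of means of 0.420.

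The fall was thus uneven over the classes of loci. The summed level of all loci was 23900, 21552 and 31410 RPM in Col-0 and 15398, 15248 and 18037 RPM in the mutant, a ratio of 0.633 with groups that did not overlap (two-sided exact permutation p = 0.1, the smallest possible). Protein-coding loci had a ratio of 0.697 and mitochondrial loci one of 0.645, both without overlap of the libraries. The protein-coding sums had means of 7419 RPM in Col-0 and 5174 RPM in the mutant, and a few loci weigh on them. AT3G06435 had means of 1441 and 122 RPM and the PPR list as a whole 601 and 1.82 RPM. NIA1 and NIA2 together rose from 118 to 863 RPM. The median difference of the tested protein-coding loci was -0.18. Chloroplast loci, with a ratio of 1.22 and an exact permutation p of 0.4, and nuclear photosynthesis genes, with a ratio of 1.11 and an exact permutation p of 0.7, overlapped between genotypes. If the libraries are instead scaled so that the summed level of miRNA genes is equal, the log2 ratio over all loci moves from -0.66 to -0.09 and the median over all tested loci from -0.44 to -0.25, and 9 loci fell, all of them among the 35. The 9 are AT3G06435 and 8 PPR genes.

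**Figure D3:**
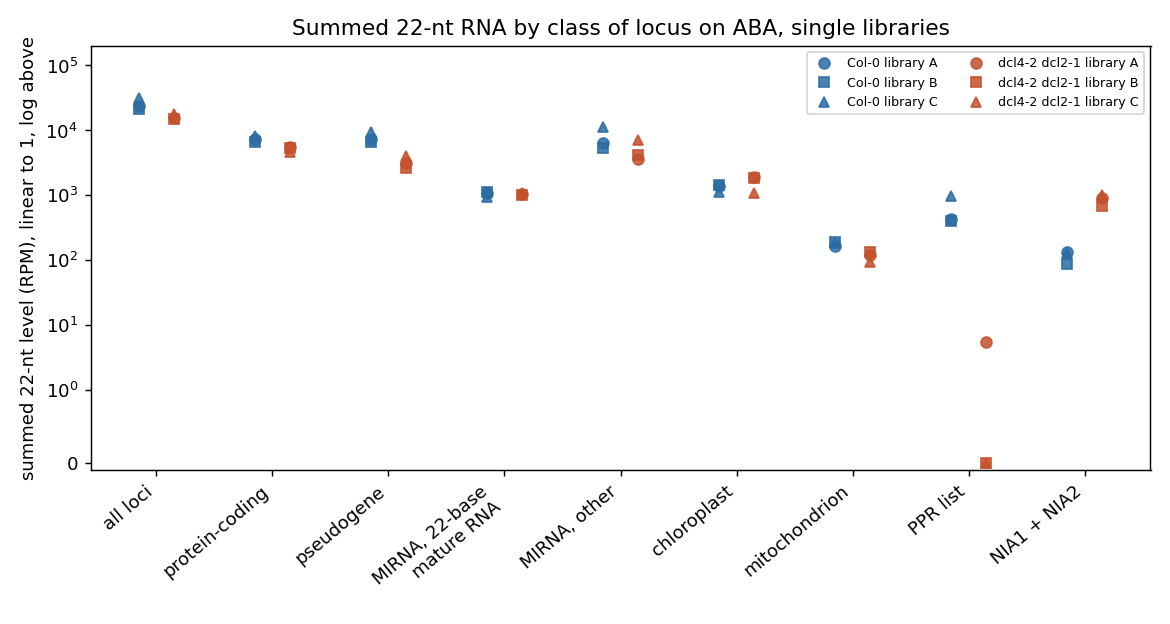
Summed 22-nt level on ABA (y axis, RPM, linear up to 1 and logarithmic above) for classes of loci, with 1 symbol for each of the 3 Col-0 and 3 dcl4-2 dcl2-1 libraries. The PPR sums drop from 398 to 966 RPM to at most 5.47 RPM, the pseudogene sums drop without overlap, and the sums of miRNA genes with a 22-base mature RNA overlap.

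Most miRNA genes are substrates of DCL1. Of 178 miRNA genes in the table, 94 were tested, 1 fell and 0 rose by limma, with 12 lower and 1 higher at an unadjusted p below 0.05, against the 17% of all tested loci that were lower and 1.07% that were higher at that level. Their median difference was -0.57 against -0.44 for all tested loci. In 20 of the 94 all Col-0 libraries lay above all mutant libraries, a pattern that 21.7% of all tested loci showed. The 28 genes with a mature RNA of 22 bases in RefSeq summed to 1074, 1133 and 963 RPM in Col-0 and 1071, 1016 and 1078 RPM in the mutant, a ratio of 0.999. That sum rests mostly on MIR162b and MIR403: the 17 of the 28 that were tested had a median difference of -0.57. All Col-0 libraries lay above in 4 of the 17 and all mutant libraries above in 0, against 1235 and 48 of all 5697 tested loci. The most abundant of these, MIR162b, had 446, 449 and 471 RPM in Col-0 and 448, 479 and 658 RPM in the mutant, and MIR403 had 433, 450 and 232 RPM and 473, 371 and 287 RPM. Both overlapped between genotypes, with adjusted p-values of 0.810 and 0.996 by limma. Their 22-base mature RNAs are given with the seed in capitals, since these genes carry most of that sum; the table counts reads per locus and does not say which sequence they had.
miR162b-5p: uGGAGGCAgcgguucaucgauc
miR403-5p: uGUUUUGUgcuugaaucuaauu

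Genes whose mature RNAs have other lengths summed to 6411, 5371 and 11430 RPM in Col-0 and 3585, 4148 and 7053 RPM in the mutant, a ratio of 0.637 with groups that overlapped. The most abundant, MIR319c, had 2029, 1745 and 4475 RPM in Col-0 and 762, 1469 and 2830 RPM in the mutant (adjusted p 0.299 by limma). MIR166e, MIR166f and MIR166g, which share a mature RNA, had almost the same value in every library, 626, 465 and 1139 RPM against 313, 327 and 547 RPM for MIR166e. Their reads thus cannot be told apart and may enter the sum more than once. MIR822, known in Arabidopsis as a miRNA gene cut by DCL4, was the miRNA gene that fell. It had 5.94, 7.10 and 3.26 RPM in Col-0 and 0, 0.907 and 0 RPM in the mutant. It fell by 2.32 ± 0.62 (SE) on the log2 scale, with a limma adjusted p of 0.0418, and it passed in 1 of the 6 fits that left out 1 library. MIR869, also named as a DCL4 substrate, had 2.28, 2.19 and 0.653 RPM in Col-0 and 0.782, 1.81 and 0 RPM in the mutant, with groups that overlapped and an adjusted p of 0.685 by limma. Both mature RNAs of MIR822 in RefSeq have 21 bases, so its 22-nt reads are not these forms.
miR822-5p: uGCGGGAAgcauuugcacaug
miR822-3p: uGUGCAAAugcuuucuacagg

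Other groups known to make secondary siRNAs were low on ABA in both genotypes. Of 7 listed disease resistance genes of the NBS-LRR family, 3 were tested and 0 passed by limma, with 2 lower at an unadjusted p below 0.05 (17% of all tested loci were); AT5G43740 had 5.48, 4.37 and 15.02 RPM in Col-0 and 0, 0.907 and 0 RPM in the mutant (adjusted p 0.0768 by limma). Of 15 genes of the silencing machinery, 3 were tested and 0 passed by limma, with 1 lower at an unadjusted p below 0.05. AGO1, which carries most miRNAs, had 1.83, 1.64 and 1.31 RPM in Col-0 and 0 reads in the mutant, and DCL1 had 3.20, 0 and 1.31 RPM and 0 reads. Auxin receptors and response factors (8 tested), HD-ZIP class III factors (4 tested), SMXL genes (5 tested) and anthocyanin MYB genes (1 tested) had 0 that passed by limma and 0 at an unadjusted p below 0.05. In the mutant library C a locus needs 16.6 RPM to give 3 reads, so a 0 there says little about loci as low as these. The TAS loci were not analysed here.

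NIA1 and NIA2 went the other way. They encode nitrate reductase, the enzyme that turns nitrate into nitrite. NIA1 had 73.1, 44.8 and 87.5 RPM in Col-0 and 526, 410 and 603 RPM in the mutant, a rise of 2.92 ± 0.37 (SE) on the log2 scale with a limma adjusted p of 5.16e-09. NIA2 had 61.6, 43.2 and 43.1 RPM in Col-0 and 380, 268 and 404 RPM in the mutant, a rise of 2.80 ± 0.44 (SE) with a limma adjusted p of 4.01e-06. All mutant libraries lay above all Col-0 libraries for both genes. In the sense of both genes they share 0 words of 22 bases, with a longest common run of 20 bases. A 22-nt read thus cannot match both perfectly in the same orientation, and the opposite orientation was not compared. For these genes the fit dropped the 3 dcl4-2 libraries on ABA, where the group mean was too high for the search for reads. Both means in dcl4-2 on ABA thus lay above the 2360 RPM of AT3G06435 there, which was solved. That contrast was not tested here. The direction did not change under any setting that gave a value, but neither gene passed when the 6 libraries were fitted alone (adjusted p 0.0802 and 0.0513 by limma). The fit also draws on the spread in dcl4-2 dcl2-1 on MS, where the reads of both genes have several possible splits between libraries B and C. With the least even split NIA1 passed and NIA2 did not (adjusted p 0.0305 and 0.0621 by limma), and with that group left out for these loci both passed (adjusted p 3.10e-09 and 1.16e-06 by limma).

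The same genotypes on MS medium show which differences were also found without the hormone, in shallower libraries. On MS, 70 loci were lower in dcl4-2 dcl2-1 (1.23% of the 5697) and 1, MIR156a, was higher, which did not pass with the least even of the possible splits of its reads (adjusted p 0.860 by limma). Of the 35 loci that fell on ABA, 8 passed as lower on MS too, 29 had a negative difference there, and 2 had no read in any of the 6 MS libraries. The 8 were AT3G06435, AT3G44580, AT1G66490 and the PPR genes AT1G63400, AT1G62914, AT1G63080, AT1G63130 and RPF3. AT3G06435 had 341, 254 and 105 RPM in Col-0 and a mean of 48.9 RPM in the mutant on MS, where its reads in libraries B and C have 2 possible splits with at most 94.4 RPM in a library, and AT1G63400 had 20.5, 32.2 and 13.8 RPM and 0 reads. In both, all Col-0 libraries again lay above all mutant libraries, at a lower level than on ABA. MS library C of the mutant held 0.0953 M reads, fewer than any other library. The Col-0 libraries on MS held 0.978, 0.869 and 0.581 M reads, fewer than those on ABA. In them 3 reads were worth 3.07, 3.45 and 5.17 RPM, near the level of the lowest of the 35 loci in Col-0 on ABA. A locus that did not pass on MS may thus still differ there. For 0 of the 35 did the difference between the media pass, with limma.

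The difference between the genotypes itself differed between ABA and MS for 11 loci, which is 0.193% of those tested. NIA1 fell on MS, from 399, 220 and 906 RPM in Col-0 to a mean of 138 RPM in the mutant (adjusted p 0.00324 by limma), and rose on ABA, so that its 2 differences were 4.61 ± 0.53 (SE) apart on the log2 scale (limma adjusted p 2.78e-10). NIA2 had 348, 112 and 732 RPM in Col-0 and a mean of 99.3 RPM in the mutant on MS (adjusted p 0.0116 by limma), and its differences were 4.61 ± 0.62 (SE) apart (limma adjusted p 1.16e-07). These means are exact, but the reads of mutant libraries B and C on MS have 6 possible splits for NIA1 and 5 for NIA2, of which the most even was fitted. With the least even split, an alternative chosen after seeing the data, the fall on MS did not pass for either gene (adjusted p 0.0903 and 0.0739 by limma), while the difference between the media passed for both (adjusted p 0.00171 and 0.00283 by limma). The HD-ZIP genes HB-8, PHB, REV and PHV, which pattern leaves and vessels, had between 3.45 and 177 RPM in Col-0 on MS and 0 reads in the mutant on MS, while at most 0.907 RPM was found in any of the 6 libraries on ABA. On ABA neither genotype thus gave more than 1 read in a library at these genes.

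**Figure D4:**
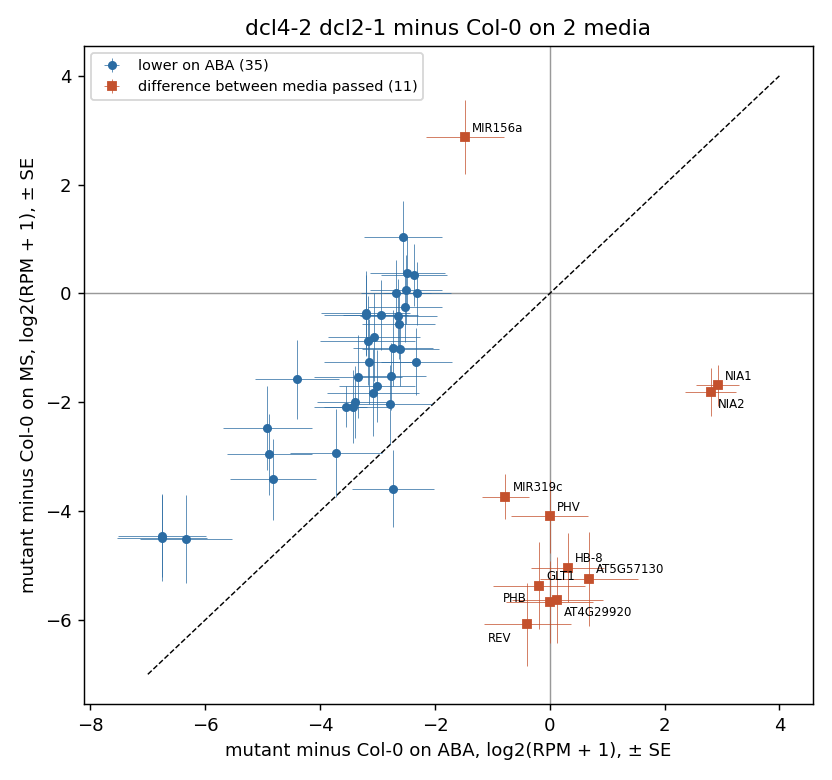
Difference between dcl4-2 dcl2-1 and Col-0 on ABA (x axis) and on MS (y axis), both on the log2(RPM + 1) scale with standard errors, for the 35 loci that fell on ABA and the 11 whose difference changed with the medium. The dashed line marks equal differences; NIA1 and NIA2 lie at the right below 0, and the HD-ZIP genes lie near 0 on the x axis. NIA1, NIA2, MIR156a and AT3G06435 are drawn with the most even split of their reads on MS.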

How the data were processed

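Libraries were prepared from total RNA with NEBNext reagents, per the labels' protocols. The submitters' processing notes name Bowtie 1.2.2, SAMtools 1.9, DESeq2 and the build TAIR10, with no roles. The authors made the deposited RPM values by scaling reads to library size and averaging the 3 libraries of a group; the file headers call them TPM, but each group mean was built from 3 increments common to all loci, so no length entered. The limma test planned for TPM suits RPM and was kept. The authors' deposited log2 fold changes served only as a check. The reads of each library were solved as whole numbers from the group mean. All 32420 loci had 1 solution in both ABA groups; in dcl4-2 dcl2-1 on MS, 34 had several, NIA1, NIA2, AT3G06435 and MIR156a among them. There the group mean is exact but the split between libraries B and C is not, and the most even solution was taken, which gives the smallest spread. Of 1027 read patterns shared by loci, 0 disagreed in the deposited log2 fold changes by over 1e-06. The growth field of the labels describes soil-grown plants; the genotype, medium and age fields were followed.

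Log2(RPM + 1) values were fitted with limma 3.58.1 (R 4.3.3), using 1 mean per group over all 18 libraries and a prior variance that follows the mean level. Loci entered if 3 or more libraries reached 1 RPM, tests were two-sided, and p-values were adjusted by Benjamini-Hochberg over 5697 loci. Sums were compared with exact permutation tests. This log scale understates the change of low loci. Depth is what the value of 1 read implies. Named loci were the 12 with the largest change in each direction among those that passed without overlap, the 10 most abundant, nitrate reductase, the leading members of each list, and the 5 smallest p-values of the difference between media; others were chosen after their values were seen. The lists and tests were chosen with earlier results of these data known. RefSeq's TAIR10.1 annotation, matched by ID for 31722 of 32420 loci, gave all coordinates and sequences. The scripts were tested on simulated data. The alternatives were other pseudocounts, filters, sets of libraries and scalings, and voom weights.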

Additional observations from a re-analysis of the deposited data

Results flagged for a closer look

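For 11 loci the difference between dcl4-2 dcl2-1 and Col-0 was not the same on ABA and on MS, by the limma test of the difference between media. On the log2 scale, the difference on ABA minus that on MS was 4.61 for NIA1, 4.61 for NIA2, 5.35 for HB-8, 5.67 for PHB, 5.69 for REV, 5.76 for AT4G29920 (SMXL4), 2.96 for MIR319c, 5.93 for AT5G57130 (SMXL5), 5.19 for GLT1, -4.35 for MIR156a and 4.10 for PHV. Of the 11, NIA1 and NIA2 passed on ABA. GLT1, which encodes a glutamate synthase of nitrogen assimilation, had 56.2, 21.9 and 109 RPM in Col-0 on MS against 0, 1.01 and 0 RPM in the mutant, and at most 4.53 RPM in any library on ABA. SMXL4 and SMXL5, known for their role in phloem formation, had 53.2, 25.3 and 84.4 RPM and 126, 5.76 and 121 RPM in Col-0 on MS, and at most 0.907 and 6.85 RPM on ABA. MIR319c was the locus with the highest level among the 11 on ABA, at 762 to 4475 RPM, and on MS it had 517, 358 and 176 RPM in Col-0 and 28.3, 40.4 and 10.5 RPM in the mutant. MIR156a was the locus in the other direction, with 44.0, 56.4 and 12.1 RPM in Col-0 and a mean of 237 RPM in the mutant on MS, and 37.0, 38.8 and 52.2 RPM and 33.6, 15.4 and 5.53 RPM on ABA, where it did not pass. The shallow library C of the mutant on MS enters all 11. Without library C of both mutant groups, an alternative chosen after seeing the data, 11 loci passed. The reads of NIA1, NIA2 and MIR156a in the mutant on MS have several possible splits between libraries B and C, and the most even was fitted. With the least even split, also chosen after seeing the data, 9 loci passed, all among the 11. MIR156a (-2.06, limma adjusted p 0.728) and MIR319c (2.96, limma adjusted p 0.494) did not pass, and the standard error of MIR319c rose from 0.58 to 0.99 although its own values have 1 solution. With these values left out, the other 8 loci passed.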

How the results depend on the processing

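The 2 nitrate reductase loci and AT3G06435 kept their direction under each alternative that gave a value, as did all 35 loci that fell, and 7 of the 35 (AT3G06435, AT1G63400, AT1G62914, AT1G63130, RPF3, AT1G62910 and AT1G63150) passed under all 18 alternatives. The count of loci that fell was 17 with a pseudocount of 0.25, 18 with no filter, 110 with at least 5 RPM in 3 libraries (951 loci tested, 24 of the 35 among the 110), 9 with equal summed miRNA levels, and 7 with the 6 libraries fitted alone. In that last fit 0 rose, with 1088 loci at an unadjusted p below 0.05 by limma. After that count was seen, loci with no read in the 6 libraries were left out, which gave 13 that fell and 2 that rose. With voom weights 32 fell, 19 of them among the 35, and 0 rose, since NIA1 and NIA2 have missing values and were not tested; 615 loci had an unadjusted p below 0.05. With the least even split of reads where several exist, chosen after seeing the data, 35 fell and 1, NIA1, rose, and 7 loci fell on both media. The other alternatives gave 24 to 51. Leaving out 1 of the 6 libraries on ABA gave 10 to 31 loci that fell, 2 to 5 that rose and 7 to 12 that differed between media. No MS library was left out alone in these fits. They thus do not show how far the differences between media rest on single Col-0 libraries on MS. There, library B was the lowest at REV, with 16.1 RPM against 100 and 177 RPM. Loci that fell on both media numbered 29 with at least 5 RPM. The summed log2 ratio was -0.093 with equal miRNA levels; the cause of these moves was not tested. Loci that never passed changed sign: with equal miRNA levels MIR399a (0.058), CAB2 (0.48) and CAB1 (0.44); with voom CAB2 (0.17), CAB1 (0.37), ARF6 (0.23) and REV (0.20); without library C of both mutant groups, chosen after seeing the data, CAB2 (0.24) and CAB1 (0.65). Leaving out 1 library gave -0.199 to 0.25 for CAB2, -0.47 to 0.65 for CAB1, -0.26 to 0.23 for MIR403, -0.061 to 0.29 for ATCG00870 and -0.16 to 0.32 for ATMG00280. No paired analysis was possible because the columns carry no replicate numbers. The planned count tests of edgeR and DESeq2 were not run, since the values are means and not counts.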
